A study of Homo sapiens with 6 samples.

Results

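The nuclear-encoded subunits of the respiratory chain and of ATP synthase were followed in OVCAR8, a cell line from high grade serous ovarian cancer, as RNA levels in 3 groups of 2 replicates. Members were chosen by gene symbol (the NDUFA, NDUFB, NDUFC, NDUFS and NDUFV families, SDHA to SDHD, the UQCR and COX5 to COX8 families, the ATP5 family, CYC1 and CYCS). Of the 85 matching symbols, 78 reached a value of 10 in 2 or more of the 6 samples, as did 9671 of the 14930 genes listed. The 78 genes comprised 36 of complex I, 4 of complex II, 9 of complex III, 11 of complex IV, 15 of ATP synthase (complex V), the electron carrier gene CYCS, and ATP5S and ATP5SL. The last pair carry the prefix without coding for a subunit, and were kept apart from the complexes.

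Control cells (Ctrl) received the solvent DMSO. The second group received DZNep, an inhibitor of S-adenosylhomocysteine hydrolase that lowers the level of the histone methyltransferase EZH2. The third (shEZH2) carried a doxycycline-inducible hairpin against EZH2, in cells named for 1 hairpin (shEZH2#2), and received doxycycline. RNA was collected after 72 hours. The labels give 5 mM DZNep and 1 mg/mL doxycycline, whereas the study's methods give the same figures in micromolar and in micrograms per millilitre. Whether the control cells carried the hairpin or received doxycycline is not stated, so the hairpin, doxycycline and the loss of EZH2 cannot be told apart in the shEZH2 group. The labels do not say that replicates were separate cultures, and p-values then measure only the spread between these samples.

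Each complex is a large assembly in the inner mitochondrial membrane. Complexes I and II pass electrons from NADH and succinate to coenzyme Q, complex III passes them on to cytochrome c, and complex IV passes them to oxygen. Complexes I, III and IV pump protons out of the matrix, and ATP synthase uses their return to make ATP. Complexes I, III, IV and V join subunits made from nuclear genes with subunits made inside the organelle from mitochondrial DNA, while complex II is nuclear-encoded throughout.

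The deposited values were whole numbers that summed to between 999956 and 1000068 in each sample, so they were scaled by the authors and are not read counts. The depth is therefore unknown. EZH2 itself read 36 and 42 in the controls, 26 and 26 under DZNep, and 18 and 18 under shEZH2. Neither treated group overlapped the control samples, and EZH2 fell by 0.63 on the log2 scale with DZNep (SE 0.18, limma adjusted p = 0.025) and by 1.12 with shEZH2 (SE 0.18, limma adjusted p = 0.016). These calls were lost when some single samples were left out, with adjusted p-values of up to 0.092 for DZNep (without control replicate 2, DZNep replicate 2 or either shEZH2 replicate) and 0.20 for shEZH2 (without either shEZH2 replicate). Of the epithelial markers, KRT7, KRT8 and KRT18 were high in every sample, with a lowest value of 350 (KRT7 with shEZH2), and the Mullerian marker PAX8 lay between 10 and 19. KRT8 read 1021 and 816 in the controls, 3540 and 3046 under DZNep, and 1484 and 1494 under shEZH2. KRT8 and KRT18 rose by 1.77 and 1.66 on the log2 scale with DZNep (limma adjusted p = 0.00085 and 0.0012), while PAX8 fell by 0.68 (limma adjusted p = 0.028, and up to 0.08 with single samples left out). Set against DZNep directly, KRT8 and KRT18 were lower with shEZH2 (-1.12 and -1.34, limma adjusted p = 0.025 and 0.017), calls that were lost without either shEZH2 replicate, and that of KRT8 also without DZNep replicate 1. EPCAM (5 to 12), CDH1 (0 to 8) and WT1 (1 to 2) were near the floor, and MUC16 was not analysed here. Of the markers of other cells, VWF (0 to 2) and COL1A1 (9 to 16) were low, whereas CD68, a lysosomal gene used as a macrophage marker, read 70 and 65 in the controls, 18 and 15 under DZNep, and 32 and 28 under shEZH2. The part of these markers in any result below was not tested. In bulk RNA, fewer cells with a transcript and less of it per cell cannot be told apart.

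Promoters of these genes are known for sites of NRF1, of ETS factors such as GABPA, and of YY1, and were read from RefSeq (250 bases before to 50 bases after the gene start, GRCh38.p14), where 63 of the 78 genes had an entry. On either strand, the NRF1 core GCGCANGCGC stood in 15 of the 63 (23.8%), against 6.28% of all 27305 promoters. The ETS core CCGGAAG stood in 18 (28.6% against 10.7%) and the YY1 core AAGATGGC in 11 (17.5% against 3.03%). The 4 stretches below, chosen after the values were seen, show how such a match lies in the promoter of a gene that passed the test with DZNep, UQCRFS1 and COX6A1 upward and ATP5H and NDUFS1 downward. Other called genes with a match, such as ATP5J, are not printed. Each is 60 bases from the strand of the gene, with the motif match in capitals, as its reverse complement in all 4.
UQCRFS1 (NRF1 core, chr19:29213152-29213211, minus strand): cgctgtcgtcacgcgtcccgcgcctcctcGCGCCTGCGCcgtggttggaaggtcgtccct
COX6A1 (ETS core, chr12:120438053-120438112, plus strand): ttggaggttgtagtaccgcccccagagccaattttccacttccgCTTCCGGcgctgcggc
ATP5H (ETS core, chr17:75047038-75047097, minus strand): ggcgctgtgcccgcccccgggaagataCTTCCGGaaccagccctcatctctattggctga
NDUFS1 (ETS core, chr2:206159569-206159628, minus strand): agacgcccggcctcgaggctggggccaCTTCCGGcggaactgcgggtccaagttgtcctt
These matches are descriptions of the letters and were not tested as sites. Of the 12 genes called lower with DZNep that had an entry, 0 held the NRF1 core, 3 the ETS core and 3 the YY1 core.

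Most subunit genes lay close to their control values after DZNep treatment. Those that passed the test were mainly lower and mainly in complex I, which holds 36 of the 78 genes. Group means were compared with limma on log2(value + 1) after TMM scaling, with all 6 samples in 1 fit and Benjamini-Hochberg adjustment over the 9671 genes (two-sided). Sample values and overlaps are those of the deposited values unless TMM scaling is named. At an adjusted p under 0.05, 14 of the 78 genes (17.9%) were lower with DZNep and 2 (2.56%) were higher. Over all tested genes, 20.4% were lower and 22.3% were higher. The share of lower calls was thus near the background, and the share of higher calls was below it. The median log2 fold change of the members was -0.05 (median size 0.23), against 0.02 (median size 0.53) over all tested genes, and 24.4% of the members differed by more than 0.5 on the log2 scale, against 52.1% of the tested genes. Without TMM scaling, 8 members (10.3%) were higher and 13 (16.7%) lower, against 25.7% and 15.6% of all tested genes. At the thresholds of the study's methods, an absolute log2 fold change over 1 and an unadjusted P under 0.05, 6 members were lower and 0 higher, where 11.8% and 10.5% of all tested genes were.

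**Figure D1:**
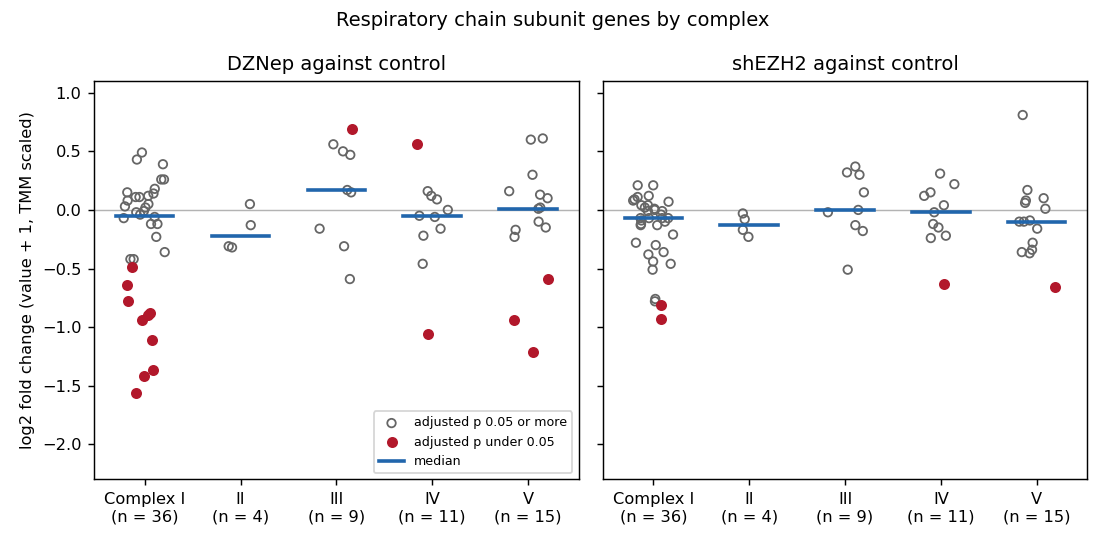
Log2 fold change of each subunit gene by complex, for DZNep (left) and shEZH2 (right) against control; each point is 1 gene, filled red at an adjusted p under 0.05, and the blue bar is the median of the complex. With DZNep, 10 of the 14 lower genes belong to complex I, which holds 36 of the 78 genes. Of the 78 genes, 17.9% are lower with DZNep, against 20.4% of all tested genes. The medians of the complexes with DZNep lie between -0.22 and 0.17.

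Complex I, the NADH dehydrogenase, had 10 of 36 genes (27.8%) lower with DZNep and none higher, against the 20.4% and 22.3% of all tested genes. The called genes described here code for iron-sulfur proteins of the arm in the matrix (NDUFS1, NDUFS7, NDUFS8 and NDUFV2) and for accessory subunits (NDUFB6, NDUFB5, NDUFB1, NDUFV3 and NDUFA7).

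NDUFS8, an iron-sulfur protein on the path of electrons to coenzyme Q, read 237 and 207 in the controls, 117 and 98 under DZNep, and 178 and 179 under shEZH2. The DZNep samples were the lowest and overlapped no other group. Its log2 change with DZNep was -1.11 (SE 0.21, limma adjusted p = 0.0047), and its difference with shEZH2 was -0.36 (adjusted p = 0.3). NDUFS1, the large subunit of the NADH-oxidising arm with several iron-sulfur clusters, read 84 and 108 in the controls, 44 and 64 under DZNep, and 69 and 69 under shEZH2. It fell by 0.90 with DZNep on the log2 scale (SE 0.18, limma adjusted p = 0.0052).

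NDUFS7 and NDUFV2, which carry further iron-sulfur clusters, fell by 0.64 and 0.49 on the log2 scale with DZNep. NDUFS7 read 78 and 76 in the controls against 55 and 48 under DZNep, and NDUFV2 read 158 and 176 against 115 and 135. These 2 calls depended on single samples. Without control replicate 1, DZNep replicate 2 or either shEZH2 replicate, the adjusted p of NDUFS7 from limma lay between 0.082 and 0.11, and its log2 change was -0.42 without DZNep replicate 2. Leaving out any single sample gave NDUFV2 a limma adjusted p between 0.057 and 0.13.

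The flavoprotein NDUFV1, which takes the electrons from NADH, read 327 and 259 in the controls, 444 and 361 under DZNep, and 334 and 323 under shEZH2. Its DZNep values were above both control values as deposited, but the groups overlapped after TMM scaling. The log2 difference of 0.39 (SE 0.24) did not pass the test (limma adjusted p = 0.22). NDUFS3, a conserved subunit of the same arm, read 72 and 64 in the controls and 68 and 54 under DZNep, and these groups overlapped.

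Of the accessory genes, NDUFB6 had the lowest log2 fold change of all members. This gene for a small membrane subunit on chromosome 9 (32553001 to 32573184, GRCh38) read 62 and 74 in the controls, 19 and 29 under DZNep, and 39 and 34 under shEZH2. The 3 groups did not overlap, in the order control, shEZH2, DZNep. It was 2.95-fold lower with DZNep (log2 change -1.56, SE 0.19, limma adjusted p = 0.00069), and with shEZH2 it fell by 0.93 (SE 0.19, limma adjusted p = 0.028).

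NDUFB5, from the same arm in the membrane, read 56 and 68 in the controls, 20 and 30 under DZNep, and 36 and 36 under shEZH2. The order of the groups was that of NDUFB6. Its log2 change was -1.37 with DZNep (SE 0.19, limma adjusted p = 0.0010) and -0.81 with shEZH2 (SE 0.19, limma adjusted p = 0.038). NDUFB1 (30 and 30 in control, 17 and 15 under DZNep, 18 and 18 under shEZH2) had a log2 change of -0.94 with DZNep (limma adjusted p = 0.0086) and a difference of -0.76 with shEZH2 (adjusted p = 0.060).

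NDUFV3 and NDUFA7, both in the matrix arm, fell by 0.88 and 0.78 on the log2 scale with DZNep, with limma adjusted p-values of 0.0067 and 0.011. The 2 highest differences in complex I with DZNep belonged to the accessory genes NDUFA2 (65 and 55 in control, 92 and 85 under DZNep, log2 0.49) and NDUFC1 (42 and 47 in control, 56 and 71 under DZNep, log2 0.43). Neither passed the test, at adjusted p-values of 0.093 and 0.067 from limma, and both were at 0.21 with shEZH2. NDUFB9, the complex I gene with the largest mean value, lay between 361 and 409 in all samples, and its controls overlapped both treated groups.

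**Figure D2:**
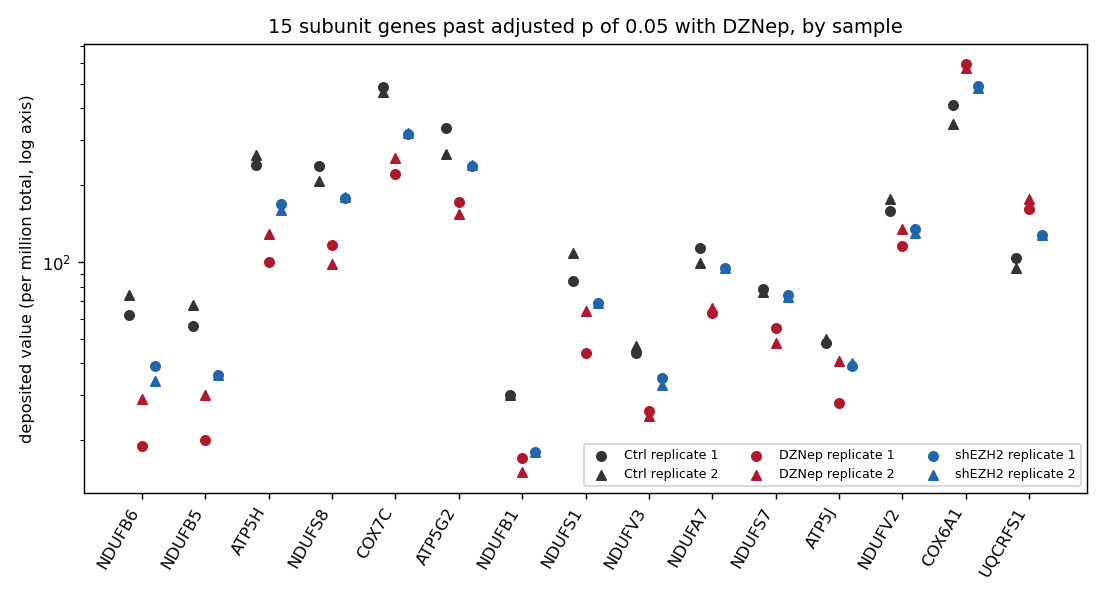
Deposited value (log axis, scaled by the authors to an equal total in each sample) of 15 subunit genes past the threshold with DZNep, ordered by log2 fold change; each point is 1 sample, with circles for replicate 1 and triangles for replicate 2. For all 15 genes shown, the DZNep samples (red) lie on 1 side of both control samples (black), and the shEZH2 samples (blue) lie close together. Choosing genes by the test with DZNep favours such separation, and some genes not called, such as ATP5G1 and UQCRC1, are separated too.

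Complex II, succinate dehydrogenase, is also an enzyme of the TCA cycle, and none of its 4 genes passed the test in any comparison (the direct one included). Of all tested genes, 20.4% were lower and 22.3% higher with DZNep, and 4.54% lower and 3.83% higher with shEZH2. In the direct comparison the shares were 4.87% higher and 4.56% lower. SDHA, the flavoprotein that oxidises succinate, read 330 and 304 in the controls, 275 and 259 under DZNep, and 312 and 309 under shEZH2. The DZNep samples were below the control samples, with a log2 difference of -0.32 (SE 0.18, limma adjusted p = 0.19). After a correction of every sample for transcript length and GC content this difference was -0.66 (limma adjusted p = 0.00017).

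SDHB, the iron-sulfur subunit, read 144 and 155 in the controls, 132 and 156 under DZNep, and 140 and 135 under shEZH2. The membrane anchors SDHC and SDHD read 71 and 68, and 109 and 134, in control cells. With DZNep they read 72 and 80, and 79 and 132, and with shEZH2 74 and 67, and 109 and 105. SDHB and SDHD overlapped between control and DZNep as deposited but not after TMM scaling. The log2 differences of the 3 genes lay between -0.31 and 0.05 with DZNep.

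Complex III, the cytochrome bc1 complex, had the highest median of the complexes with DZNep, 0.17, which was within 1 SD of the replicates (0.171). UQCRFS1, the Rieske iron-sulfur protein, was its 1 called gene among 9, where 22.3% of all tested genes were higher and 20.4% lower. It read 104 and 95 in the controls, 162 and 176 under DZNep, and 127 and 127 under shEZH2, with no overlap between groups and shEZH2 in the middle. It was 1.61-fold higher with DZNep (log2 change 0.69, SE 0.17, limma adjusted p = 0.013), and leaving out control replicate 2 gave 0.54 (adjusted p = 0.070). With shEZH2 the log2 difference was 0.30 (adjusted p = 0.28).

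The core proteins UQCRC1 and UQCRC2 and cytochrome c1 (CYC1) did not pass the test. UQCRC1, with the largest mean value in complex III, read 565 and 432 in the controls, 849 and 693 under DZNep, and 680 and 641 under shEZH2, a log2 difference of 0.56 with DZNep (SE 0.24, limma adjusted p = 0.097). CYC1, the heme subunit that hands electrons to cytochrome c, read 567 and 432 in the controls, 783 and 662 under DZNep, and 517 and 499 under shEZH2. Both genes were above the control samples in both DZNep samples as deposited, with control replicate 1 well above control replicate 2. After TMM scaling, CYC1 overlapped between control and DZNep and UQCRC1 did not.

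At the other end, UQCRB, a small subunit linked to the binding of coenzyme Q, read 138 and 220 in the controls, 95 and 156 under DZNep, and 131 and 122 under shEZH2. Control and DZNep overlapped as deposited but not after TMM scaling, and its log2 difference of -0.59 (SE 0.23) had a limma adjusted p of 0.070. The small subunits UQCR11 and UQCR10 had log2 differences of -0.31 and 0.50 with DZNep, short of the threshold. UQCRH was at -0.16, and its near copy UQCRHL, with values between 6 and 9, did not pass the filter. Cytochrome c itself (CYCS) read 200 and 287 in the controls, 141 and 267 under DZNep, and 201 and 169 under shEZH2. All 3 groups overlapped as deposited, while control and shEZH2 did not after TMM scaling.

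Complex IV, cytochrome c oxidase, had 1 gene lower and 1 higher with DZNep among 11, where 20.4% and 22.3% of all tested genes were. COX7C, a small membrane subunit on chromosome 5 (86617928 to 86620962), read 487 and 463 in the controls, 222 and 256 under DZNep, and 316 and 319 under shEZH2. The groups were separate, with shEZH2 between the others. It was 2.09-fold lower with DZNep (log2 change -1.06, SE 0.16, limma adjusted p = 0.0015), and with shEZH2 it fell by 0.63 (SE 0.16, limma adjusted p = 0.048).

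COX6A1, the widely expressed form of a subunit whose other form is typical of heart and skeletal muscle, read 414 and 346 in the controls, 595 and 577 under DZNep, and 489 and 482 under shEZH2. The groups did not overlap. Its log2 change with DZNep was 0.56 (SE 0.19, limma adjusted p = 0.049), and without control replicate 2 it was 0.35 (adjusted p = 0.25) and without DZNep replicate 1 it was 0.41 (adjusted p = 0.19). Without either shEZH2 replicate the adjusted p was 0.11. The muscle form COX6A2 and the tissue-restricted forms COX7A1, COX6B2, COX7B2, COX8C and COX4I2 were not analysed here.

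COX7A2, the widely expressed form of its subunit, had a log2 difference of -0.00 with DZNep, and COX7A2L, which takes part in joining complexes III and IV, one of -0.46 (166 and 158 in control, 119 and 129 under DZNep, limma adjusted p = 0.052). COX5A and COX5B, COX6B1, COX6C, COX7B and COX8A had log2 differences between -0.22 and 0.16, none of them past the threshold. NDUFA4, named for complex I and now placed in complex IV, was at -0.05. COX4I1, a subunit that the choice by symbol missed, read 453 and 382 in the controls, 490 and 456 under DZNep, and 436 and 445 under shEZH2, a log2 difference of 0.11 with DZNep.

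ATP synthase had 3 of 15 genes lower with DZNep and none higher, where 20.4% and 22.3% of all tested genes were. ATP5H, subunit d of the outer stalk, on chromosome 17 (75038863 to 75046985), read 239 and 263 in the controls, 100 and 129 under DZNep, and 169 and 160 under shEZH2. The 3 groups were separate, again with shEZH2 in the middle. It was 2.31-fold lower with DZNep (log2 change -1.21, SE 0.15, limma adjusted p = 0.00074), and with shEZH2 it fell by 0.66 (SE 0.15, limma adjusted p = 0.037).

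The c ring, which turns as protons pass, is made of 1 protein that 3 genes encode, differing in the part that targets it to mitochondria. ATP5G2 read 334 and 265 in the controls, 172 and 154 under DZNep, and 237 and 240 under shEZH2. ATP5G1 read 82 and 62 in the controls, 125 and 106 under DZNep, and 78 and 81 under shEZH2. ATP5G3 read 173 and 158 in the controls, 197 and 175 under DZNep, and 159 and 160 under shEZH2.

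With DZNep, ATP5G2 therefore lay below both control samples and the other pair above them, though ATP5G3 overlapped the controls after TMM scaling. ATP5G2 fell by 0.94 on the log2 scale (SE 0.22, limma adjusted p = 0.011). ATP5G1 had a log2 difference of 0.61 (SE 0.24), which did not pass the test (limma adjusted p = 0.074), and ATP5G3 one of 0.10. After the correction for transcript length and GC content, the values were -1.09 for ATP5G2 (limma adjusted p = 3.3e-05) and 0.46 for ATP5G1 (limma adjusted p = 0.0027). The difference between the genes was not tested.

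ATP5J, subunit F6 of the outer stalk, was the third called gene (48 and 50 in control, 28 and 41 under DZNep, log2 change -0.59, limma adjusted p = 0.032). Its call was lost when any single sample other than DZNep replicate 2 was left out, with adjusted p-values between 0.064 and 0.12, and its log2 difference was -0.19 (adjusted p = 0.22) after the correction for length and GC content. The catalytic head had none of 5 genes called with DZNep, where 20.4% of all tested genes were lower and 22.3% higher. Its catalytic subunit ATP5B, the complex V gene with the largest mean value, read 1397 and 1234 in the controls, 1416 and 1366 under DZNep, and 1374 and 1374 under shEZH2, and the groups overlapped. ATP5D, the delta subunit of the head, read 24 and 20 in the controls, 38 and 33 under DZNep, and 40 and 41 under shEZH2. Both treated groups lay above the control samples, but the log2 differences of 0.60 and 0.81 (SE 0.23 each) did not pass the test (limma adjusted p = 0.065 and 0.063). After the correction for length and GC content, ATP5B was at -0.33 and ATP5D at 0.42 with DZNep (limma adjusted p = 0.0041 and 0.013). Of all tested genes, 29.9% were then lower and 30.0% higher.

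Subunits whose older or other names escape the symbol patterns were read as well. C14orf2 (now ATP5MJ), a small membrane subunit of ATP synthase, fell by 0.51 with DZNep on the log2 scale (163 and 169 in control, 117 and 128 under DZNep, limma adjusted p = 0.030, and up to 0.12 when any single sample but DZNep replicate 1 was left out). C7orf73 (now STMP1), a small mitochondrial protein on the same list, read 19 and 18 in the controls, 7 and 12 under DZNep, and 17 and 14 under shEZH2, and fell by 1.00 with DZNep (limma adjusted p = 0.01). NDUFAB1, the acyl carrier protein in complex I, USMG5 (now ATP5MK), a small membrane subunit, and the ATP synthase inhibitor ATPIF1 had log2 differences of 0.41, -0.34 and -0.28, none of them past the threshold.

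Silencing of EZH2 gave fewer calls. With shEZH2, 4 of the 78 genes (5.13%) were lower, namely NDUFB6, NDUFB5, ATP5H and COX7C, and 0 were higher in the limma fit. The background was 4.54% lower and 3.83% higher, so the share of lower calls was near it. At an unadjusted p under 0.05, 10 members (12.8%) were lower and 2 (2.56%) higher, against 13.5% and 14.7% of all tested genes. The median log2 difference of the members was -0.08 (median size 0.15), against -0.01 (median size 0.31) over all tested genes, and the medians of the complexes lay between -0.13 and -0.00. The 4 genes were also called lower with DZNep, but both comparisons share the control samples.

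The shEZH2 replicates of these genes lay close together. Over the members, replicate 2 minus replicate 1 had an SD of 0.0817 on the log2 scale with shEZH2, against 0.276 in control cells and 0.332 with DZNep. With the shEZH2 samples averaged into 1, none of the 78 genes was called lower, and the 4 genes had limma adjusted p-values between 0.27 and 0.40. The part of the small spread in these calls was not tested. All 4 calls were lost without control replicate 2 (limma adjusted p between 0.07 and 0.11) and without either shEZH2 replicate (0.24 to 0.43), and those of ATP5H and COX7C also without control replicate 1 (0.061 and 0.1). At the thresholds of the study's methods, 0 members were lower and 0 higher, where 3.07% and 2.22% of all tested genes were.

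With the shEZH2 group set against the DZNep group directly, 0 of the 78 genes passed in either direction in the limma fit (background 4.87% higher and 4.56% lower), while 9 (11.5%) were higher and 1 (1.28%) lower at an unadjusted p under 0.05, against 13.3% and 14.2% of all tested genes. NDUFS8 had the largest log2 difference (0.75, SE 0.21, limma adjusted p = 0.065), and that of NDUFB6 was 0.63 (SE 0.19, limma adjusted p = 0.075). ATP5H had the lowest adjusted p (0.057), with a difference of 0.55 (SE 0.15). After the correction for length and GC content, 13 members (16.7%) were higher with shEZH2 than with DZNep and 2 (2.56%) lower, against 18.4% and 17.0% of all tested genes, with NDUFS8 at 0.65 (limma adjusted p = 0.0024).

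Transcript length and GC content bear on these genes, since subunit transcripts are short, with a median length of 905 bases against 3292 over the tested genes. Over the 78 members, the difference between replicate 2 and replicate 1 had a correlation with GC content of -0.69 in control cells, -0.74 with DZNep and 0.30 with shEZH2. These are descriptions over genes of the same libraries. NDUFA5, at a GC content of 34.6%, read 11 and 21 in the controls, 8 and 17 under DZNep, and 13 and 10 under shEZH2.

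A lowess correction for both properties in every sample moved the log2 change of a member with DZNep by at most 0.44 (median 0.16). Afterwards 20 members were lower and 10 higher with DZNep, against 29.9% and 30.0% of all tested genes. Of the 14 lower genes, 13 were called again (ATP5J was not), and of the 2 higher genes, both. Among the genes called after the correction were SDHA, UQCR11, NDUFB8, NDUFS3 and NDUFA10 downward and ATP5G1, ATP5D, UQCRC1, UQCR10 and NDUFA2 upward. With shEZH2, 14 members were then lower, NDUFS8 among them (limma adjusted p = 0.0052), and 2 higher, against 17.9% and 14.9% of all tested genes.

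**Figure D3:**
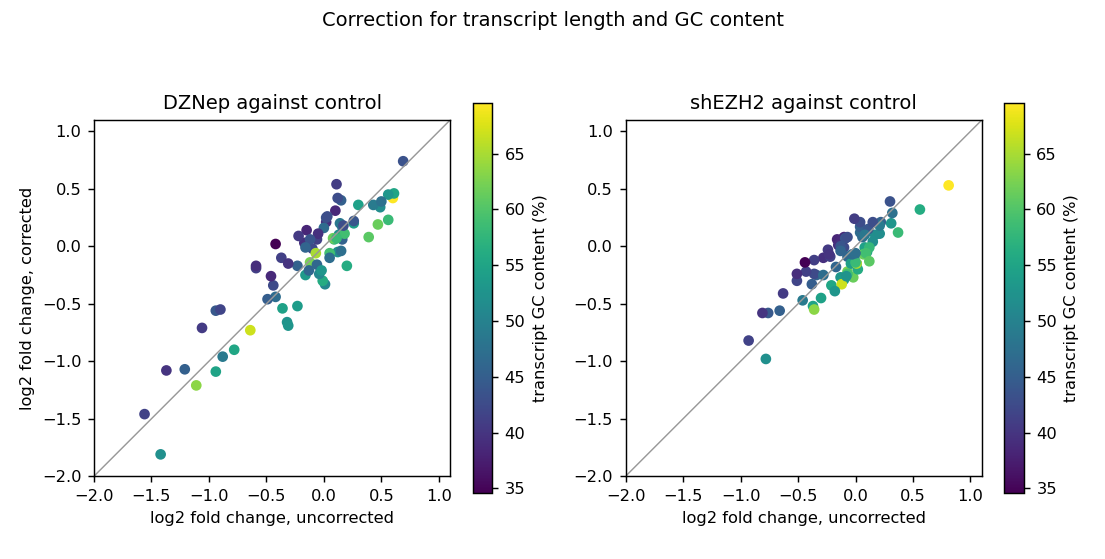
Log2 fold change of the 78 genes before (horizontal) and after (vertical) correction for transcript length and GC content, for DZNep (left) and shEZH2 (right) against control; each point is 1 gene, coloured by the GC content of its transcript in percent, and the line marks equality. Genes with low GC content (dark) lie mostly above the line and the largest shift with DZNep is 0.44.

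Genes that build the complexes were called in both directions with DZNep. Every call with shEZH2 among the genes outside the 78 members, given from here on, was lost when either shEZH2 replicate was left out or the 2 were averaged, and each of them except that of COX20 was also lost without 1 of the control replicates. Of 18 assembly factors of complex I, 5 (27.8%) were higher and 2 (11.1%) lower with DZNep, against 22.3% and 20.4% of all tested genes. The calls of NDUFAF1, NDUFAF5 and COA1 among the 5 were lost without control replicate 2 and without either shEZH2 replicate (limma adjusted p up to 0.069, 0.1 and 0.078 with 1 sample left out), which leaves C17orf89 and NDUFAF4. C17orf89 (now NDUFAF8) read 24 and 22 in the controls and 51 and 47 under DZNep (log2 change 0.99, limma adjusted p = 0.0062), and NDUFAF4 rose by 0.93. NDUFAF7, a methyltransferase that acts in assembly, fell by 1.08 on the log2 scale (16 and 19 in control, 6 and 11 under DZNep, limma adjusted p = 0.0075). TIMMDC1, a membrane assembly factor, fell by 1.00 (80 and 104 in control, 39 and 58 under DZNep, limma adjusted p = 0.0038). With shEZH2, 0 of the 18 passed, where 4.54% of all tested genes were lower and 3.83% higher. ECSIT (log2 0.90, limma adjusted p = 0.086) and NDUFAF7 (-0.67, adjusted p = 0.11) were at the ends with shEZH2.

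Of the 4 assembly factors of complex II, SDHAF2, which helps attach the flavin to SDHA, rose by 0.62 with DZNep and SDHAF4 fell by 0.88. The call of SDHAF2 was lost when any single sample but DZNep replicate 2 was left out (adjusted p from limma up to 0.12). Of 6 for complex III, UQCC2 fell by 1.47 on the log2 scale, from 248 and 191 in the controls to 87 and 77 under DZNep (143 and 142 under shEZH2, limma adjusted p = 0.0018 for DZNep), and UQCC3 rose by 0.67. Both act early, on cytochrome b, and the call of UQCC3 was lost without control replicate 2, DZNep replicate 1 or either shEZH2 replicate (limma adjusted p up to 0.21). Of 4 for ATP synthase, TMEM242 and TMEM70, which take part in building the membrane part, rose by 1.29 and 0.98. For all these lists, the shares of all tested genes with DZNep were 22.3% higher and 20.4% lower. None of these 14 assembly factors passed with shEZH2 in the limma fit, where 4.54% of all tested genes were lower and 3.83% higher.

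Of 24 tested assembly factors of complex IV (26 listed), 6 (25.0%) were higher and 4 (16.7%) lower with DZNep. These shares were near the 22.3% and 20.4% of all tested genes. The calls of SCO2 and TMEM177 upward and TACO1 downward were lost when some single samples were left out. COX19 (10 and 9 in control, 31 and 35 under DZNep) and COA7 (37 and 38, against 111 and 132) rose by 1.63 and 1.59 on the log2 scale, with limma adjusted p-values of 0.00083 and 0.00032. COX20, a chaperone of the subunit COX2, fell by 1.93 (30 and 45 in control, 8 and 11 under DZNep, limma adjusted p = 0.00046), and the copper chaperone COX17 fell by 1.07. With shEZH2, COX10, which makes heme O for complex IV, rose by 1.07 (8 and 8 in control, 18 and 19 under shEZH2, limma adjusted p = 0.020). COA7 rose by 0.72 and COX20 fell by 1.38 (14 and 14 under shEZH2, adjusted p = 0.014). The controls of COX10, and control replicate 2 of COX19, were under the filter of 10. Both genes passed it only with treated samples, which favours a rise. Set against DZNep directly, COX17 was higher with shEZH2 (log2 difference 0.84, limma adjusted p = 0.027) and COX19 (-1.03, adjusted p = 0.025) and COA7 (-0.88, adjusted p = 0.019) were lower. These calls too were lost without either shEZH2 replicate, that of COX17 also without DZNep replicate 2, and that of COX19 also without DZNep replicate 1.

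Of 10 tested genes for coenzyme Q synthesis and the cytochrome c heme lyase HCCS (12 listed), 5 were lower with DZNep and none higher. The shares over all tested genes were 20.4% lower and 22.3% higher. COQ2, which joins the ring to its side chain, read 39 and 53 in the controls, 11 and 16 under DZNep, and 25 and 26 under shEZH2. It fell by 1.77 on the log2 scale with DZNep (limma adjusted p = 0.00049) and by 0.86 with shEZH2 (limma adjusted p = 0.039), the 1 gene of the list called with shEZH2. PDSS2, part of the enzyme that makes the side chain, fell by 1.34 with DZNep (10 and 15 in control, 5 and 4 under DZNep). Of control and DZNep, only the controls of PDSS2 reached the filter of 10, which can favour a fall. Its DZNep values were near the floor. COQ5, COQ6 and COQ7 fell by 0.79, 0.61 and 0.57 with DZNep. The calls of COQ6 and COQ7 were lost when some single samples were left out (the shEZH2 replicates and DZNep replicate 1 for both, DZNep replicate 2 and control replicate 1 for COQ6, control replicate 2 for COQ7), with limma adjusted p-values of up to 0.20 and 0.15.

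Of 12 tested subunits from mitochondrial DNA (13 listed), 10 were higher with DZNep and none lower, against 22.3% and 20.4% of all tested genes. Their median log2 fold change was 1.19. All 7 MT-ND genes, for the membrane part of complex I, were among them, with log2 changes between 0.83 and 1.71 (MT-ND6 the highest, and MT-ND4L the lowest, whose adjusted p from limma rose to 0.10 without 1 of the control replicates or DZNep replicate 1), whereas MT-CO1 and MT-CO2, at 0.34 and 0.47, did not pass. With shEZH2, 7 were higher (median 0.77), against 3.83% of all tested genes, with MT-ND5 and MT-ND4 the highest at 0.94. MT-ND5 read 31 and 34 in the controls, 96 and 119 under DZNep, and 81 and 53 under shEZH2. The nuclear complex I genes, with a median of -0.05, and the mitochondrial ones thus differed in the direction of their calls with DZNep, and this difference was not tested.

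Of 9 tested regulators of respiration genes (11 listed), MYC rose by 1.44 with DZNep (73 and 69 in control, 201 and 207 under DZNep, limma adjusted p = 0.00060) and by 0.89 with shEZH2, and the coactivator PPRC1 rose by 0.81 with DZNep (limma adjusted p = 0.014, and up to 0.061 without control replicate 2 or DZNep replicate 1). NRF1 itself read 15 and 13 in the controls, 15 and 14 under DZNep, and 15 and 13 under shEZH2. ESRRA had the lowest difference of the list with DZNep, -0.67 (limma adjusted p = 0.057). Of 7 carriers and channels, SLC25A6 fell by 0.65 and SLC25A4 rose by 0.67 with DZNep. Of all tested genes, 20.4% were lower and 22.3% higher with DZNep. SLC25A6 and SLC25A4 exchange ADP and ATP across the inner membrane, and neither passed with shEZH2. With DZNep their calls were lost without DZNep replicate 2, either shEZH2 replicate, control replicate 1 (SLC25A6) or control replicate 2 (SLC25A4), at limma adjusted p-values of up to 0.11 and 0.12.

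**Figure D4:**
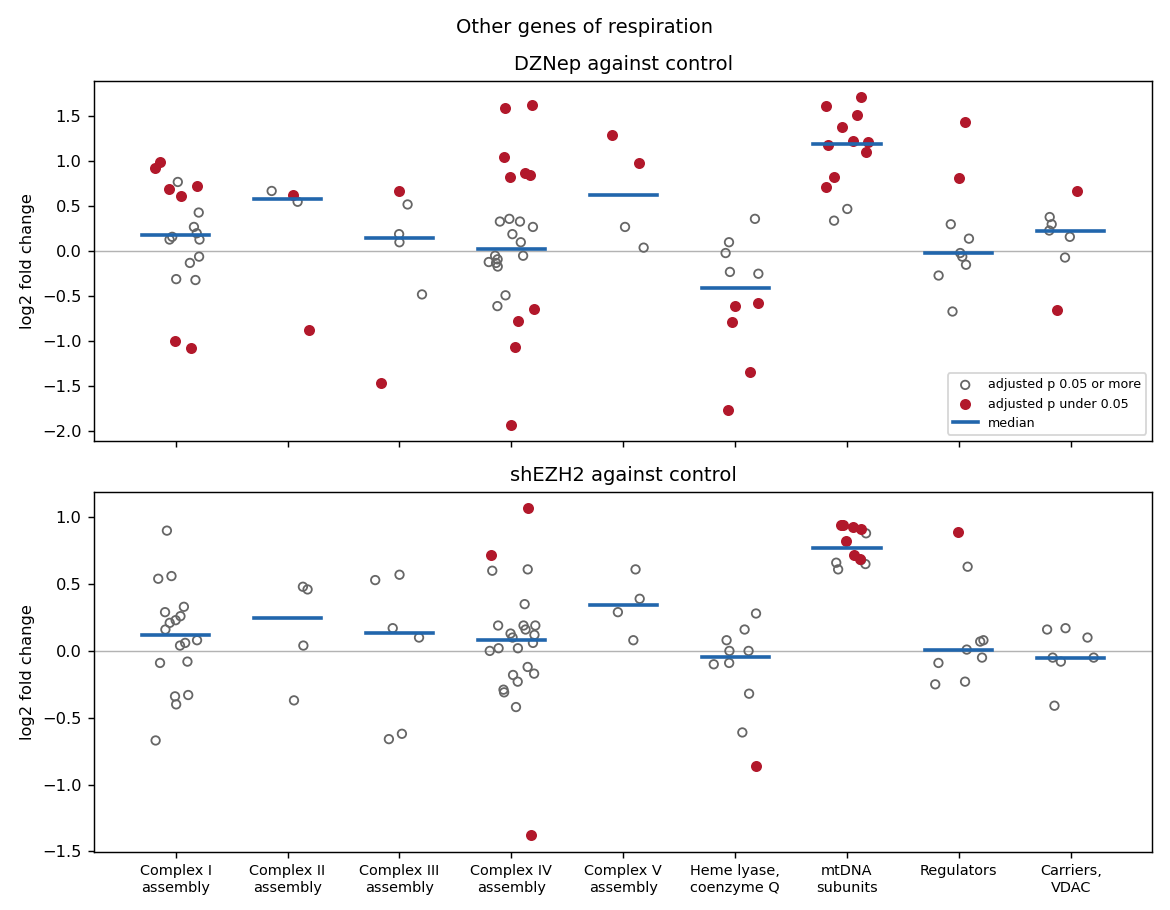
Log2 fold change of genes that assemble, supply, regulate or complete the respiratory chain, for DZNep (top) and shEZH2 (bottom) against control; each point is 1 gene, filled red at an adjusted p under 0.05, and the blue bar is the median of the list. With DZNep, the subunits from mitochondrial DNA lie between 0.34 and 1.71, and the assembly lists of complexes I to IV hold calls in both directions.

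The 7 matching symbols under the filter were the readthrough genes NDUFC2-KCTD14 and ATP5J2-PTCD1, the antisense genes NDUFV2-AS1 and NDUFA6-AS1, the pseudogenes UQCRFS1P1 and NDUFV2P1, and UQCRHL. The second-highest of their 6 values ran from 1 to 8. The nearest gene inside the filter was NDUFA5, with a second-highest value of 17. ATP5S read 19 and 24 in the controls and 12 and 22 under DZNep, and ATP5SL, a complex I assembly factor, read 23 and 19 in the controls, 28 and 23 under DZNep, and 32 and 33 under shEZH2, with neither past the threshold. Many subunit genes have processed copies elsewhere in the genome, and reads shared with such copies were divided by an estimate, so that values of single subunits carry an uncertainty these files do not give.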

How the data were processed

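RNA-Seq of OVCAR8 cells covered 6 samples, with groups taken from the labels. Libraries were stranded and depleted of ribosomal RNA. For the authors' table, fastp trimmed the reads, STAR placed them on GRCh38 and RSEM estimated the gene levels. The deposited table holds 1 score per gene and sample, scaled by the authors to a common total and rounded. It is labelled a count matrix, which the equal totals contradict. The test was therefore limma 3.58.1 (R 4.3.3), with an intensity trend, on log2(value + 1), and not a count test. TMM factors without weights trimmed 30% of ratios and 5% of levels. Genes needed a value of at least 10 in 2 samples. Fold changes are on this log2 scale and understate those of low genes.

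Members and gene lists were chosen with earlier results of these data known. Any member may be named, with sample values for the extremes of each complex, complex II, CYC1, CYCS, paralogs and the largest mean per complex. For the other lists, the 2 highest and 2 lowest genes may be named, and further genes were named after their values were seen, as were the roles within complexes. Older symbols were matched to current ones through RefSeq synonyms. GENCODE v44 gave coordinates, and the length and GC content of the transcripts for 98.5% of tested genes (lowess span 0.3). Alternatives were other scaling, filters, pseudocounts, trend, samples and corrections, and the fold and P thresholds of the study's methods. 1 member is counted but not reported here. The test recovered changes set in simulated data, where noise was equal and independent in all samples, unlike the replicate differences described here. Figures were drawn with matplotlib 3.10.9.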

Additional observations from a re-analysis of the deposited data

How the results depend on the processing

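The limits are the 2 replicates per group, the unknown depth, the rounding of low values and the near identity of the shEZH2 samples. Of the 14 subunit genes lower with DZNep, 11 were called under all 18 alternatives (ATP5J, NDUFS7 and NDUFV2 were not), and none of the 2 higher genes or of the 4 lower with shEZH2 was. Outside the members, 32 of 49 called genes with DZNep and 0 of 14 with shEZH2 were called under every alternative that tested them. That was 17 and not 18 for some of them, among them the low genes COX10, COX19, PDSS2 and C7orf73. The number higher with DZNep (2) was 1 with median-ratio scaling, with no filter, with a mean of at least 20, without the trend, with only the groups compared and with the shEZH2 samples averaged, 8 with the values as deposited, 10 after the length and GC correction, and 0 at the fold and unadjusted P thresholds (an absolute log2 fold change over 1), which left 6 lower. With shEZH2, the number higher (0) was 1 with the values as deposited and with only the groups compared, and 2 after the correction, while the number lower (4) was 2 without the trend, 14 after the correction, and 0 with the samples averaged and at the fold thresholds. In the direct comparison, the number higher (0) was 1 with median-ratio scaling and with only the groups compared, 3 as deposited and 13 after the correction, and the number lower (0) was 2 after the correction. The median of complex II with DZNep (-0.22) was -0.15 as deposited. ATP5B with DZNep (0.01) was -0.33 after the length and GC correction, with or without the replicate block (limma adjusted p = 0.0041 and 0.0019). Except where the construction of an alternative shows it, the cause was not tested.

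The replicate numbers come from the labels, which do not say that they mark a batch. Deviations of replicate 1 from its group mean had a correlation of 0.786 between control and DZNep over all genes, of -0.0241 for control with shEZH2, and of -0.0383 for DZNep with shEZH2. With the replicate block, 9 members were higher and 17 lower with DZNep (28.3% and 27.9% of all tested genes), 2 higher and 8 lower with shEZH2 (14.4% and 14.3%), and 8 higher and 2 lower with shEZH2 against DZNep (13.9% and 12.9%). UQCRC1 and CYC1 were among those higher with DZNep under the block (limma adjusted p = 0.0055 and 0.02). With the block and the length and GC correction, the counts were 14 and 20 (33.1% and 32.7% of all tested genes), 4 and 22 (19.8% and 22.5%), and 14 and 7 (23.2% and 21.3%).

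With 1 sample at a time left out, the number higher with DZNep ran from 0 (without control replicate 2) to 8 (without control replicate 1 or DZNep replicate 2) and the number lower from 11 to 16. With shEZH2 they ran from 0 to 1 and from 0 to 6, and in the direct comparison from 0 to 2 and 0 to 0. The shares over all tested genes under these omissions are not given here, so these ranges are not set against a background. The medians of complexes I to V with DZNep ran from -0.18 to 0.05, -0.22 to -0.10, 0.17 to 0.40, -0.16 to 0.07 and -0.13 to 0.14, and with shEZH2 from -0.23 to 0.02, -0.18 to -0.04, -0.18 to 0.25, -0.20 to 0.19 and -0.18 to 0.03. With DZNep the medians of complexes I and IV were above 0 without control replicate 1 or DZNep replicate 2, and that of complex V below 0 without control replicate 2 or DZNep replicate 1. With shEZH2 those of complexes I, III, IV and V were above 0 without control replicate 1, and that of complex III also without shEZH2 replicate 1.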

Other observations

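The difference between replicate 2 and replicate 1 followed the same subunit genes in control and DZNep cells, with a correlation over the 78 members of 0.91, and of 0.88 after the correction for transcript length and GC content. These are descriptions over genes of the same 4 libraries, with no test. NDUFS4, an accessory subunit of complex I, differed by 0.48 on the log2 scale between the replicates in control cells and by 0.45 with DZNep, and by 0.57 and 0.51 after the correction, against 0.05 and -0.01 with shEZH2. UQCRB differed by 0.51 and 0.46 before the correction and by -0.11 and -0.15 after it. What the replicates of these groups share is not given in the sources used here.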
